A study of Mus musculus with 289 samples.

Results

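The genes described here are 10 members of the MHC class I pathway: the heavy chains H2-D1 and H2-K1, the light chain B2m, the peptide transporter chains Tap1 and Tap2, its partner Tapbp, the immunoproteasome subunits Psmb8 and Psmb9, and the proteasome activator subunits Psme1 and Psme2. They were taken by gene identifier from the 5 deposited count tables, and all 10 had a row in each table, out of 55487 gene rows in the largest table and 18523 present in all 5. They were chosen by name as a known pathway, with earlier results of these data known. Their levels were read by gRNA label, day and batch, and set beside the in-slice controls of the same batch.

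The samples were single astrocytes taken with a patch pipette from the cortex of adult transgenic mice that express Cas9, and each cell was made into a Smart-seq2 library of polyadenylated RNA. The animals had been injected in the cortex with a lentivirus described as astrocyte-specific and named Mok-LV, which carried guide RNAs (gRNAs) against the transcription factor genes Sox9, Trps1 or both. The design asks how the transcriptome of adult cortical astrocytes changes when these factors are targeted. In-slice controls were 12 libraries, labelled as holding no cell or as slice controls. Cas9 is shared by all groups.

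In batch 5 the groups were 30 Trps1 gRNA cells and 21 Sox9 gRNA cells of day 21, with 23 cells of no gRNA and 5 in-slice controls. Batch 4 comprised, at day 21, 16 Sox9 gRNA cells and 13 that carried the gRNAs of both genes (dual gRNA), 15 Trps1 gRNA cells of day 7, 15 control gRNA cells of day 21 and 2 in-slice controls. In batch 3 there were 14 dual gRNA and 21 Sox9 gRNA cells of day 7, with 6 cells of no gRNA and 4 in-slice controls. Batch 2 had 8 dual gRNA cells of day 21, 7 control gRNA cells of day 21, 8 control gRNA cells of day 7 and 1 in-slice control. Batch 1 had 4 dual gRNA cells, 10 control gRNA cells and 31 cells of no gRNA, and no in-slice control. Day was not used in batch 1. There the day labels vary over the cells of each gRNA group and do not overlap between control and dual gRNA cells. Cells of no gRNA are labelled adult, and the sources used here do not say whether their animals received virus. The presence of a gRNA and the history of an injection therefore cannot be told apart in any comparison with no gRNA cells. Day and batch differ together between several groups, so log2 ratios were taken within a batch. Ranges and cell counts over several batches only describe the pools. In batch 4 a further 35 labelled samples had no column of values and were not analysed here: 12 Trps1 gRNA cells of day 21, 16 Trps1 gRNA cells of day 7, 4 Sox9 gRNA, 2 control gRNA and 1 dual gRNA cell.

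MHC class I molecules show peptides from inside a cell to cytotoxic T cells. The immunoproteasome, opened by the PA28 activator, cuts proteins into peptides, the TAP transporter carries them into the endoplasmic reticulum, and tapasin holds the transporter beside empty class I molecules until a peptide is bound. A class I molecule reaches the surface as a heavy chain paired with beta-2 microglobulin. Interferons raise most of these genes together, through IRF factors, the class I transactivator Nlrc5 and NF-kappaB, and in the resting brain class I levels are low in neurons and astrocytes and higher in microglia and endothelium.

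H2-K1 lies on chromosome 17 at 33996017 to 34000347 on the minus strand, and H2-D1 on chromosome 17 at 35262730 to 35267499 on the plus strand (GRCm38). On the same chromosome, Tapbp lies before H2-K1 (33915899 to 33929292, plus), and between H2-K1 and H2-D1 lie Psmb9 (34181987 to 34187764, minus), Tap1 (34187553 to 34197225, plus), Psmb8 (34197721 to 34201454, plus) and Tap2 (34203527 to 34216321, plus). B2m is on chromosome 2 (122147686 to 122153083, plus), and Psme1 (55578123 to 55581529, plus) and Psme2 (55587441 to 55591113, minus) are neighbours on chromosome 14. The Psmb9 and Tap1 genes overlap at their starts on opposite strands, so reads in that overlap cannot be assigned to one of them where strand is not used.

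The upstream sequences of the chains are shown because all 3 chains were higher in every gRNA pool than in any no gRNA pool, and because they hold letters that match NF-kappaB and IRF elements. RefSeq promoter windows (GRCm38.p6) were found for 9 of the 10 members, all except Tap2. The H2-D1 window overlaps an annotated first exon, so only its matching stretch is printed. Capitals mark the 11-base NF-kappaB palindrome and, on the reverse strand, the shorter IRF-type element, read as GAANNGAAA, in H2-D1 and H2-K1, and the longer IRF-type element of 10 bases in B2m. The sequences run 5′ to 3′ on each gene's own strand.
H2-D1 stretch, chr17:35262923-35262952, plus strand: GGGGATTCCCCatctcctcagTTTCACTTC
H2-K1 stretch, chr17:34000429-34000458, minus strand: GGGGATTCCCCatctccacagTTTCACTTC
H2-K1 upstream, chr17:34000358-34000597, minus strand: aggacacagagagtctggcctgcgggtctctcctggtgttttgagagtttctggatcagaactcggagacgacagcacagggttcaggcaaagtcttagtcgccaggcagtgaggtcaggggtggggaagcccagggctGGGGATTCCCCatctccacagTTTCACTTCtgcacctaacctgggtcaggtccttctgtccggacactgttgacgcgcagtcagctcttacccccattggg
B2m upstream, chr2:122147437-122147676, plus strand: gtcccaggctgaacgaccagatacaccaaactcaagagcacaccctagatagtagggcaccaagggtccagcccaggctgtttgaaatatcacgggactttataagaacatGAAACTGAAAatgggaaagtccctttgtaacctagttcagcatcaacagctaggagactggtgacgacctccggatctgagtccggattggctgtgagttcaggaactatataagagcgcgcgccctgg
Counted from 1 at the first base of the stretch, H2-K1 and H2-D1 differ by the single substitution A18T, with the H2-K1 base first. Over the 250 bases before the start, H2-D1 and H2-K1 matched at 167 of 191 aligned columns (87.4%). Their longest coding transcripts matched at 1443 of 1813 columns (79.6%).

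Motifs were searched on both strands of 32851 windows of 250 bases before the start. The NF-kappaB palindrome, with the letters shown in capitals at the start of the stretch, was found in 10 of these windows (0.0304%), and 2 of the 9 members with a window, H2-D1 and H2-K1, held it. The longer IRF-type element was found in 2.98% of windows and in 1 member, B2m. GAANNGAAA was found in 6.31% of windows and in 2 members, H2-D1 and H2-K1. TGACG, read by CREB-type factors, was found in 17.8% of windows and 6 of 9 members, and CCAAT in 33.8% of windows and 6 of 9 members. The Tap1 and Psmb9 windows overlap on opposite strands and hold the same TGACG site and the same CCAAT site. Each of these sites is thus counted for both genes, so the members are not independent in either count. TTCNNNGAA, the GAS element, was found in 7.02% of windows and in 1 member, Psmb8. The longer IRF-type element has 1 base more between its ends than the shorter. These matches describe letters in a window and do not show that a factor binds there.

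The heavy chains share stretches with other genes, which bears on how their reads could be counted. Of all 50-base words of its longest transcript, H2-D1 shared 14.3% with other genes, most with H2-Q1, and H2-K1 shared 8.79%, most with H2-D1. Psme2 shared 59.3%, all of it with its near-identical copy Psme2b, so Psme2 levels are uncertain. B2m shared none. The share was 21.0% for Tapbp, 14.1% for Psme1, 12.6% for Tap2, 12.5% for Psmb9 (with the overlapping Tap1), 6.47% for Tap1 and 5.83% for Psmb8.

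Values are pooled CPM (counts per fixed number of reads in genes, summed over all cells of a group), with an exact Poisson interval at 95% in brackets that covers counting error only. The labels name no animal, so each group, day and batch is 1 pool, its cells are not replicates, and no comparison here has a test or a replicate check. Astrocyte libraries held 15959 to 4656612 reads in genes (median 1094502), and in-slice controls 341394 to 2299609. The no gRNA pool of batch 3 was the shallowest, with a median of 236508 reads and 3 of its 6 cells under 100000. The 14 astrocyte markers summed to 1854 to 23790 CPM in astrocyte pools, lowest in the dual gRNA pool of batch 4, and to 70.2 to 1384 CPM in in-slice pools. A list of 16 microglia and macrophage markers summed to 3176 to 28891 CPM in in-slice pools. In pools of this kind, fewer cells with a transcript and less RNA per cell cannot be told apart from CPM alone, so shares of cells with a read are given as well. Single cells carried many pools: of 139 member levels of 5 CPM or more in astrocyte pools, 68 were over 1.5 times the level left without the highest cell, among them 9 of the 39 levels of H2-D1, H2-K1 and B2m in gRNA pools.

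Every pool of gRNA cells, control gRNA included, held more of the 3 class I chains than any pool of no gRNA cells. Batches 2 and 4 had no cells of no gRNA, so for their pools this sets different batches, of unlike depth, side by side. Within batches 1, 3 and 5, each gRNA pool also held more of each chain than the no gRNA pool of its batch. H2-D1 stood at 397 to 2689 CPM in the 13 gRNA pools, against 0 to 6.72 CPM in the 3 no gRNA pools. H2-K1 stood at 333 to 1854 CPM, against 0 to 15.1 CPM, and B2m at 650 to 2698 CPM, against 56.9 to 88.6 CPM. Counted over all batches together, reads of H2-D1 were found in 157 of 182 gRNA cells and 17 of 60 no gRNA cells. For H2-K1 the counts were 138 of 182 and 14 of 60 cells, and for B2m 172 of 182 and 46 of 60 cells. The microglial list differed in the same contrast, at 6042 to 13709 CPM in gRNA pools, against 294 to 356 CPM in no gRNA pools.

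**Figure D1:**
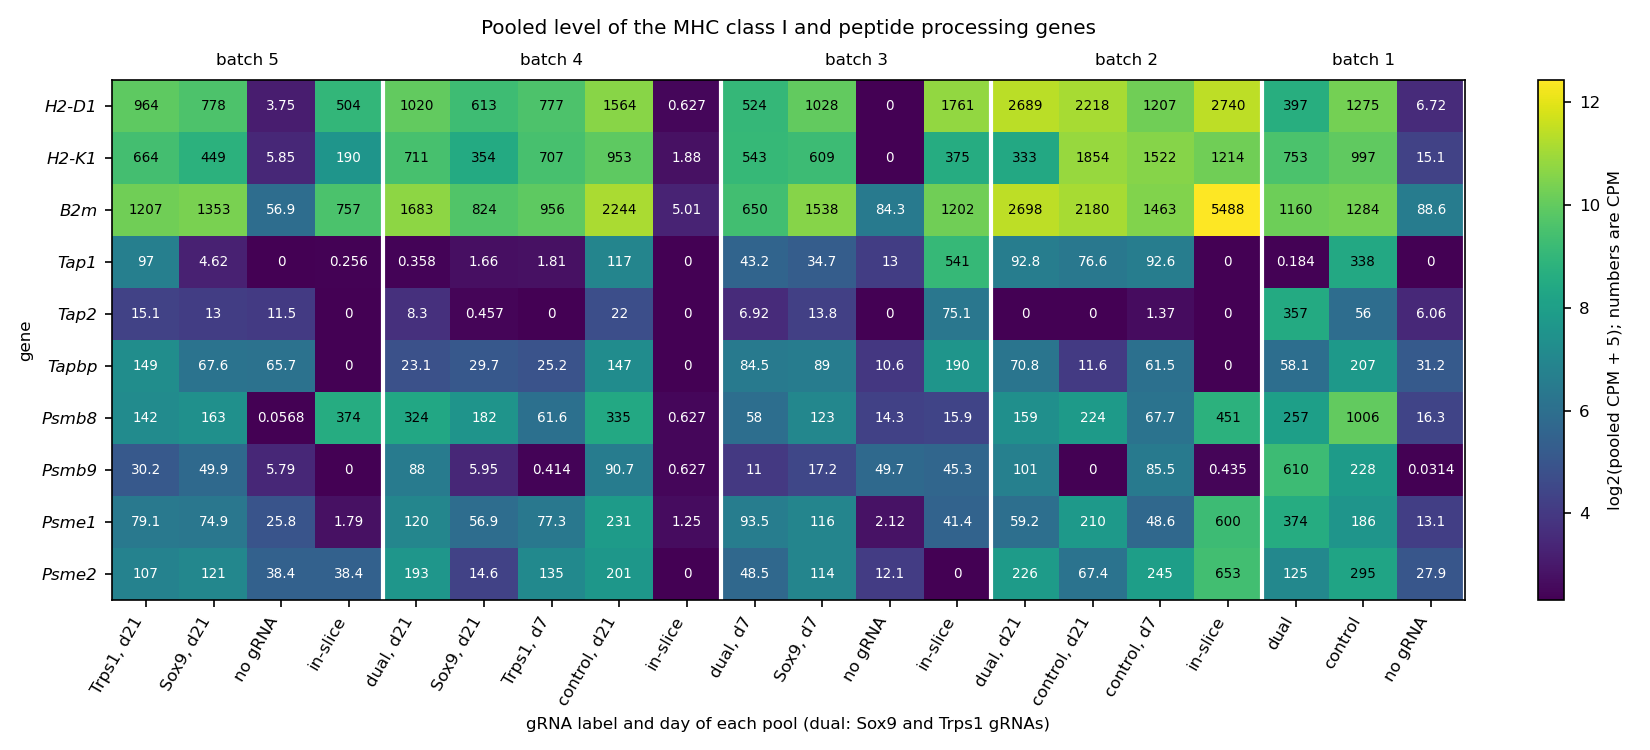
Heat map of pooled levels, with the 10 genes in rows and the pools in columns from batch 5 at the left to batch 1 at the right; colour is log2(pooled CPM + 5) and the number in each cell is the pooled CPM. H2-D1, H2-K1 and B2m are bright in every gRNA pool and stand at or under 88.6 CPM in the 3 no gRNA columns.

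A gene was counted as higher or lower in a comparison when the log2 ratio of its pooled CPM, after 5 was added to both, was at least 1 in size and the higher pool held 5 CPM or more. In control gRNA cells of batch 1, all 10 members were higher than in no gRNA cells, with a median log2 ratio of 4.66, where 37.2% of all genes tested were higher and their median ratio was 0.26. In Trps1 gRNA cells of batch 5, 9 of 10 members were higher than in no gRNA cells (median 3.0), and 30.3% of all genes tested were higher (median 0.41). In Sox9 gRNA cells of that batch the count was 7 of 10 (median 1.94), with 24.3% of all genes higher (median 0.07). No member was lower in these comparisons, where 30.1% of all genes were lower with control gRNA, 14.3% with Trps1 gRNA and 20.5% with Sox9 gRNA. They share their no gRNA cells within batch 5.

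In batch 3, Sox9 gRNA cells of day 7 had 9 members higher than no gRNA cells and 1 lower, Psmb9, where 63.5% of all genes were higher and 13% lower. Dual gRNA cells of the same day had 9 higher and 1 lower, again Psmb9, against 60.8% and 16.8% of all genes. The members' median ratios were 2.77 and 2.1 with Sox9 gRNA and dual gRNA, beside 1.43 and 1.38 over all genes tested, so most genes stood higher than in the shallow no gRNA pool. In dual gRNA cells of batch 1, 8 members were higher than in no gRNA cells (median 4.01), where 25.9% of all genes were higher and 63.2% lower, and their median was -1.51.

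Against control gRNA cells of day 21 in batch 4, Sox9 gRNA cells had 9 of 10 members lower and none higher (median -2.03), where 40.7% of all genes were lower (median -0.59). Trps1 gRNA cells of day 7 had 8 lower (median -1.92), beside 35.0% of all genes (median -0.18), and gRNA and day cannot be told apart there. Dual gRNA cells had 3 lower (median -0.52), a share near the 36.9% of all genes (median -0.43). These 3 comparisons share their control cells, and no member was higher in them, where 23.2%, 28.7% and 19.5% of all genes were higher with Sox9, Trps1 and dual gRNA. Set against Sox9 gRNA cells, dual gRNA cells of this batch had 5 members higher (median 1.01), where 32.8% of all genes were higher and 31.5% lower (median 0.10).

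Other comparisons were smaller or mixed. Trps1 gRNA cells had 2 members higher than Sox9 gRNA cells in batch 5, Tap1 and Tapbp, beside 28.3% of all genes, and none lower, beside 15.7%. Dual gRNA cells of day 7 had 3 members lower than Sox9 gRNA cells in batch 3, B2m, Psmb8 and Psme2, beside 28.4% of all genes, and none higher, beside 21.0%. Dual gRNA cells of batch 2 had 3 members higher (Tapbp, Psmb9 and Psme2) and 2 lower (H2-K1 and Psme1) than control gRNA cells of day 21, beside 33.9% and 41.7% of all genes. Between control gRNA cells of day 21 and day 7, 2 members were higher at day 21 (Psmb8 and Psme1) and 3 lower (Tapbp, Psmb9 and Psme2), beside 28.8% and 43.4%. Dual gRNA cells of batch 1 had 2 members higher (Tap2 and Psmb9) and 5 lower than control gRNA cells, beside 22.3% and 63.8% of all genes.

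Over the 15 comparisons, 101 member ratios were past the fold, and 12 of them were no longer so without the highest cell of each pool. They were 7 ratios of Tap2, 2 of Psmb9, 2 of Psme2 and 1 of Psmb8. Calls over all genes were lost in the same way. Against no gRNA in batch 5, genes higher fell from 2985 to 1678 with Sox9 gRNA and from 3851 to 2402 with Trps1 gRNA. Genes lower with Sox9 than with control gRNA in batch 4 fell from 4697 to 2459. Members went from 7 to 7, from 9 to 9 and from 9 to 8 in these comparisons. For Psme2 in batch 2, where 84.7% of the dual gRNA reads came from 1 cell, the log2 ratio of dual to control gRNA cells was 1.67 with all cells and 0.27 without the highest. For Psmb8 in batch 3 the ratio of dual gRNA to no gRNA cells was 1.71 with all cells and 0.97 without the highest.

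**Figure D2:**
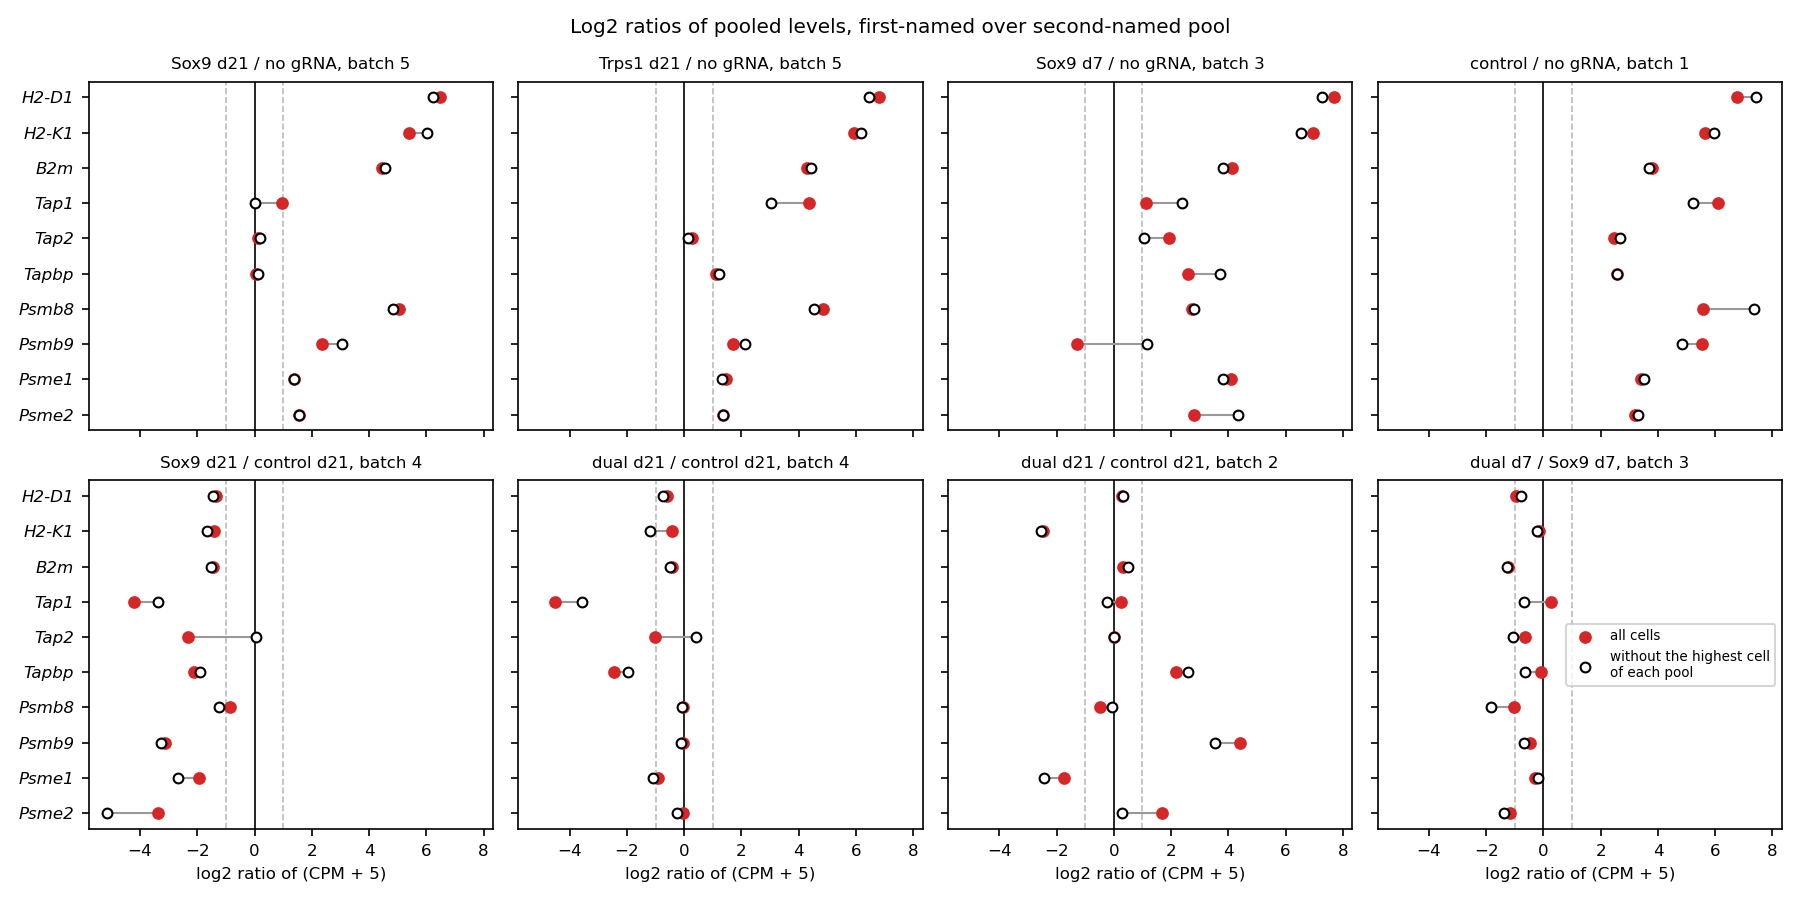
Log2 ratio of (CPM + 5) for each gene in 8 of the 15 comparisons, the first-named pool over the second; filled points use all cells, open points leave out the highest cell of each pool, and dashed lines stand at 1 and -1. H2-D1, H2-K1 and B2m lie right of 1 in the 4 upper panels, which compare with no gRNA cells, and H2-K1 stands at -2.46 between dual and control gRNA cells of batch 2.

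H2-D1, a class I heavy chain, stood at 964 CPM (952 to 976) in Trps1 gRNA cells and 778 CPM (765 to 792) in Sox9 gRNA cells of batch 5, against 3.75 CPM (2.9 to 4.77) in no gRNA cells. The lowest, median and highest cell held 0, 22.5 and 6603 CPM with Trps1 gRNA, 0, 544 and 3651 CPM with Sox9 gRNA and 0, 0 and 91.1 CPM with no gRNA. The groups overlapped at the low end, since some gRNA cells had no read, but 14 of 30 Trps1 gRNA cells and 17 of 21 Sox9 gRNA cells were above the highest no gRNA cell. The ratio to no gRNA cells was 257-fold with Trps1 gRNA and 208-fold with Sox9 gRNA. Reads were found in 22 of 30 and 19 of 21 gRNA cells, against 8 of 23 no gRNA cells. The Trps1 gRNA cells were the more uneven pool, with a higher sum but a far lower median than the Sox9 gRNA cells.

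H2-K1, the other heavy chain measured, followed the same order in batch 5. It stood at 664 CPM (655 to 674) with Trps1 gRNA, 449 CPM (439 to 459) with Sox9 gRNA and 5.85 CPM (4.77 to 7.09) with no gRNA. Its lowest, median and highest cells held 0, 3.18 and 6552 CPM with Trps1 gRNA, 0, 204 and 1949 CPM with Sox9 gRNA and 0, 0 and 128 CPM with no gRNA. The highest no gRNA cell was passed by 12 of 30 Trps1 gRNA cells and 12 of 21 Sox9 gRNA cells. Of the Trps1 gRNA reads 43.1% came from 1 cell, without which the pool held 395 CPM.

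B2m, the light chain that every class I molecule needs, was the only chain read in many no gRNA cells. It stood at 1207 CPM (1193 to 1219.9) with Trps1 gRNA and 1353 CPM (1336 to 1370.4) with Sox9 gRNA, against 56.9 CPM (53.4 to 60.5) with no gRNA in batch 5. Lowest, median and highest cells held 0, 530.3 and 5146 CPM with Trps1 gRNA, 0, 894 and 3802 CPM with Sox9 gRNA and 0, 45.2 and 522 CPM with no gRNA. The groups overlapped, with 15 of 30 Trps1 gRNA cells and 14 of 21 Sox9 gRNA cells above the highest no gRNA cell. The ratio to no gRNA cells was 21.2-fold with Trps1 gRNA and 23.8-fold with Sox9 gRNA, and B2m was read in 13 of 23 no gRNA cells.

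**Figure D3:**
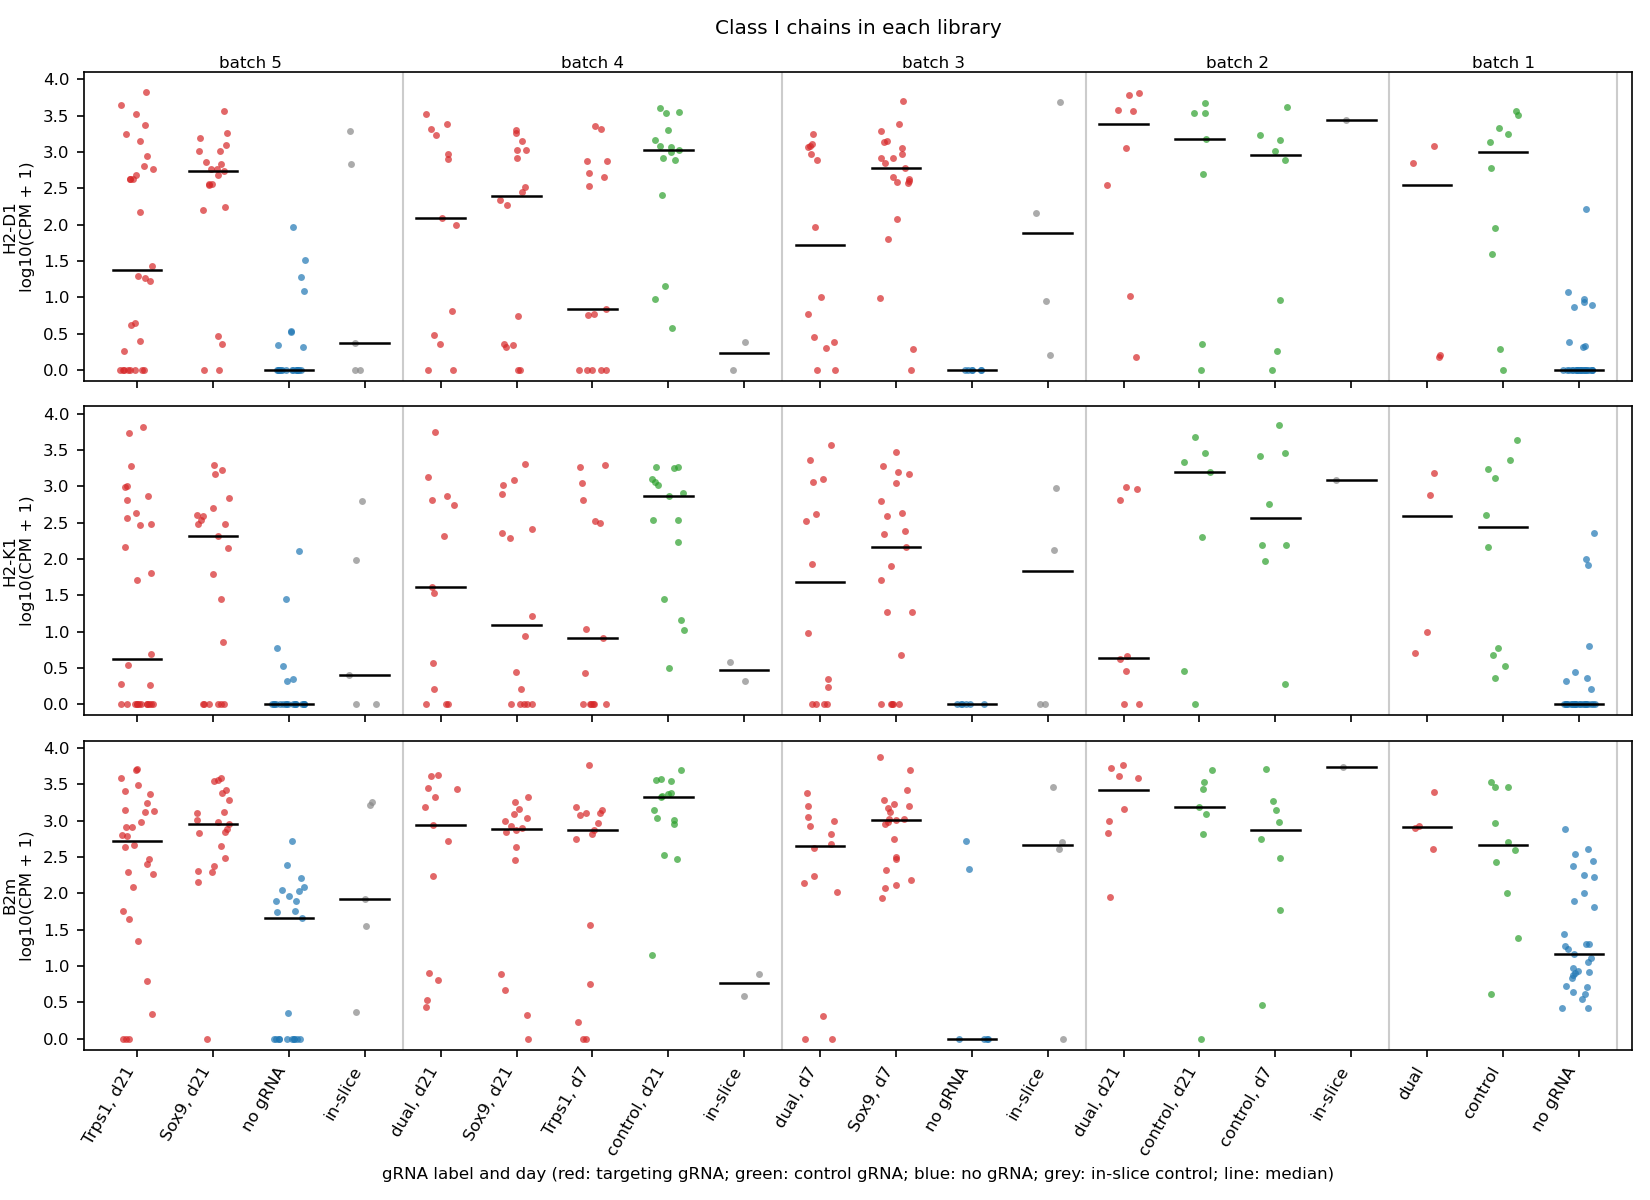
Each point is 1 library, with log10(CPM + 1) of H2-D1, H2-K1 and B2m on the vertical axes and the groups along the horizontal axis, batch 5 at the left; lines mark medians. The medians of the no gRNA groups lie at 0 for both heavy chains, and most gRNA groups hold both high cells and cells without a read.

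In batch 1 the chains were also higher with control gRNA than with no gRNA. H2-D1 stood at 1275 CPM (1254 to 1296) with control gRNA and 6.72 CPM (5.85 to 7.68) with no gRNA, H2-K1 at 997 CPM (979 to 1016) with control and 15.1 CPM (13.8 to 16.5) with no gRNA, and B2m at 1284 CPM (1263 to 1305) with control and 88.6 CPM (85.3 to 91.9) with no gRNA. Control gRNA cells above the highest no gRNA cell numbered 6 of 10 for H2-D1, 5 of 10 for H2-K1 and 4 of 10 for B2m, so the groups overlapped in all 3 genes. The 4 dual gRNA cells split by heavy chain. Their H2-D1 levels were 1227, 709, 0.531 and 0.640 CPM, and in the same order their H2-K1 levels were 4.17, 8.97, 1530.4 and 769.9 CPM, so no cell was high in both. B2m was read in all of them, at 834, 791, 400.4 and 2508 CPM.

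At day 7 in batch 3, H2-D1 stood at 524 CPM (514 to 533) with dual gRNA and 1028 CPM (1016 to 1039) with Sox9 gRNA. H2-K1 stood at 543 CPM (533 to 553) with dual and 609 CPM (600.1 to 618) with Sox9 gRNA, and B2m at 649.5 CPM (639 to 660.4) with dual and 1538 CPM (1524 to 1552) with Sox9 gRNA. The 6 no gRNA cells held no read of either heavy chain, which by a floor of 3 counts allows up to 0.910 CPM in the pool. H2-D1 was then at least 576-fold higher with dual gRNA and at least 1129.9-fold higher with Sox9 gRNA. Of B2m the no gRNA cells held 525, 215 and, in 4 cells, 0 CPM. B2m differed between the gRNA pools, with a log2 ratio of dual to Sox9 gRNA cells of -1.24, while H2-K1 differed by -0.16.

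Batch 4 had no cells of no gRNA, and its highest chain levels were in control gRNA cells. H2-D1 stood at 613 CPM (602 to 625) with Sox9 gRNA, 1019.5 CPM (1004 to 1035) with dual gRNA and 777 CPM (765 to 789.6) with Trps1 gRNA of day 7, against 1564 CPM (1546 to 1582) with control gRNA. The lowest, median and highest cells were at 0, 247 and 1977 CPM with Sox9 gRNA, 0, 121 and 3298 CPM with dual gRNA, 0, 6.01 and 2284 CPM with Trps1 gRNA and 2.8, 1066 and 4022 CPM with control gRNA. All 4 pools overlapped from cell to cell, and the control pool was the one whose every cell held a read of each chain. H2-K1 stood at 354, 711 and 707 CPM in the Sox9, dual and Trps1 gRNA pools, against 953 CPM in the control pool. B2m stood at 824, 1683 and 956 CPM in these pools, against 2244 CPM in the control pool. For Sox9 gRNA cells the log2 ratios to control were -1.34 for H2-D1, -1.42 for H2-K1 and -1.44 for B2m, and without the highest cell of each pool they were -1.47, -1.68 and -1.53. For dual gRNA cells the ratios were -0.61, -0.42 and -0.41 with all cells and -0.74, -1.19 and -0.51 without the highest, since 1 dual gRNA cell held 51.9% of the H2-K1 reads and the pool held 365 CPM without it. The microglial list stood at 6042 CPM with Sox9 gRNA, 13709 CPM with dual gRNA, 6683 CPM with Trps1 gRNA and 11689 CPM with control gRNA, and its part in these differences was not tested.

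The heavy chains parted from each other in batch 2. H2-D1 stood at 2689 CPM (2666 to 2711) in dual gRNA cells of day 21, 2218 CPM (2194 to 2242) in control gRNA cells of day 21 and 1207 CPM (1192 to 1224) in control gRNA cells of day 7. B2m followed the same order at 2698, 2180.1 and 1463 CPM. Without its highest cell the day 7 control pool held 664 CPM of H2-D1 and 790.4 CPM of B2m. H2-K1 instead stood at 333 CPM (325 to 341) with dual gRNA, against 1854 CPM (1832 to 1876) in control gRNA cells of day 21 and 1522 CPM in those of day 7, a log2 ratio of -2.46 between dual and control gRNA cells of day 21. Lowest, median and highest cells held 0, 3.42 and 977 CPM of H2-K1 with dual gRNA and 0, 1598 and 4745 CPM with control gRNA at day 21. The groups overlapped, and the highest dual gRNA cell was under the control median.

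Across all 182 gRNA cells, 75 held 100 CPM or more of both heavy chains, 39 held that of H2-D1 alone, 18 of H2-K1 alone and 50 of neither. Among the 60 no gRNA cells the counts were 0, 1, 2 and 57 in the same order. H2-D1 at that level came with B2m at that level in 106 gRNA cells and without it in 8. Within pools of gRNA cells, the Spearman correlation of H2-D1 with B2m over cells ran from 0.31 to 0.83 and that of H2-D1 with H2-K1 from 0.04 to 0.96, over 7 to 30 cells where pools of 4 cells are left out, and values of 1 cell share its library and depth.

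Tap1, which with Tap2 forms the channel that carries peptides into the endoplasmic reticulum, was read in 47 of 182 gRNA cells and 1 of 60 no gRNA cells. Its level in batch 5 was 97.0 CPM (93.3 to 101) with Trps1 gRNA and 4.62 CPM (3.66 to 5.76) with Sox9 gRNA, and no gRNA cells held no read. These values came from 4 of 30 Trps1 gRNA cells and 1 Sox9 gRNA cell. Against the floor of 3 counts in the no gRNA pool, Tap1 was at least 569.5-fold higher with Trps1 gRNA, but 65.0% of its reads came from 1 cell. In batch 1 control gRNA cells held 338 CPM (327 to 349) in 6 of 10 cells, and no gRNA cells again held none. The 4 dual gRNA cells of that batch held 1 read between them.

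In batch 4 Tap1 was near absent from all pools of targeting gRNA and present with control gRNA. It stood at 1.66 CPM (1.11 to 2.38) with Sox9 gRNA, 0.358 CPM (0.131 to 0.780) with dual gRNA and 1.81 CPM (1.26 to 2.52) with Trps1 gRNA, against 117 CPM (112 to 122) with control gRNA. Reads were found in 3 of 16, 2 of 13 and 2 of 15 cells of these pools, against 5 of 15 control cells. The highest control cell held 1328 CPM and 53.8% of the reads of its pool. Without the highest cell of each pool the log2 ratios to control were still -3.36, -3.59 and -3.59, yet most control cells had no read, so the pools overlapped at 0. In batch 3 Tap1 stood at 43.2 CPM with dual gRNA, 34.7 CPM with Sox9 gRNA and 13 CPM with no gRNA, where 1 cell held all the reads.

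Tap2, the partner chain, was the least often read member, in 24 of 182 gRNA cells and 10 of 60 no gRNA cells. In batch 5 the pools were close, at 15.1 CPM (13.6 to 16.6) with Trps1 gRNA, 13 CPM (11.3 to 14.8) with Sox9 gRNA and 11.5 CPM (9.94 to 13.2) with no gRNA. Its highest pool was that of dual gRNA in batch 1, at 357 CPM, of which 99.9% came from 1 of 4 cells at 1244 CPM. No read was found in either day 21 pool of batch 2 or in Trps1 gRNA cells of day 7. In batch 4 the control pool held 22 CPM, all from 1 cell, so its ratios turn with that cell: log2 -2.31 with Sox9 gRNA and -1.02 with dual gRNA, and 0.03 and 0.40 without the highest cells. Tap1 and Tap2 both reached 100 CPM in 3 gRNA cells, Tap1 alone in 17 and Tap2 alone in 6.

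Tapbp encodes tapasin, which bridges the transporter and class I molecules, and it was read in 90 of 182 gRNA cells and 14 of 60 no gRNA cells. Its level in batch 5 was 149 CPM (144 to 154) with Trps1 gRNA and 67.6 CPM (63.8 to 71.6) with Sox9 gRNA, against 65.7 CPM (62.0 to 69.6) with no gRNA, and was read in 14 of 30 Trps1 gRNA, 9 of 21 Sox9 gRNA and 10 of 23 no gRNA cells. The intervals of these shares overlapped, and the highest cells held 928 CPM with Trps1 gRNA, 336 CPM with Sox9 gRNA and 461 CPM with no gRNA. In batch 4 Tapbp stood at 29.7 CPM with Sox9 gRNA, 23.1 CPM with dual gRNA and 25.2 CPM with Trps1 gRNA, against 147 CPM with control gRNA. In batch 2 the dual gRNA pool was instead higher, at 70.8 CPM against 11.6 CPM in control cells of day 21, where 1 of 7 cells held nearly all reads. Control gRNA cells of day 7 held 61.5 CPM in 5 of 8 cells. At day 7 in batch 3 its reads came from 10 of 14 cells with dual gRNA, at 84.5 CPM, and 15 of 21 with Sox9 gRNA, at 89.0 CPM, against 10.6 CPM in no gRNA cells.

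Psmb8, the immunoproteasome subunit that takes the place of Psmb5, came closest to the chains in its pattern. It stood at 142 CPM (138 to 147) with Trps1 gRNA and 163 CPM (157 to 169) with Sox9 gRNA in batch 5, and the no gRNA pool held 1 read. Lowest, median and highest cells were 0, 0 and 994 CPM with Trps1 gRNA, 0, 134 and 938 CPM with Sox9 gRNA and 0, 0 and 1.26 CPM with no gRNA. It was read in 13 of 30 Trps1 gRNA and 13 of 21 Sox9 gRNA cells, and the single no gRNA cell with a read was passed by 11 of 30 Trps1 gRNA and 13 of 21 Sox9 gRNA cells. In batch 1 it reached 1006 CPM (988 to 1025) with control gRNA in 10 of 10 cells, against 16.3 CPM (14.9 to 17.7) with no gRNA in 6 of 31 cells. The dual gRNA cells of that batch held 0.695, 1.79, 34.5 and 852 CPM, and 95.2% of their reads came from the last.

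Among gRNA pools Psmb8 parted from the chains in several places. In batch 4 the dual gRNA and control gRNA pools were level, at 324 CPM (316 to 333) and 335 CPM (327 to 344), while Sox9 gRNA cells held 182 CPM and Trps1 gRNA cells of day 7 held 61.6 CPM. Their shares of cells with a read were 10 of 16 and 11 of 15, against 10 of 15 with control gRNA, so the shares were close while the pooled levels were not. In batch 3 it stood at 58.0 CPM with dual gRNA, or 24.9 CPM without the cell that held 60.3% of the reads, and at 123 CPM with Sox9 gRNA. Levels in batch 2 were 159 CPM with dual gRNA and 224 and 67.7 CPM in control gRNA cells of day 21 and day 7.

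Psmb9, the subunit that takes the place of Psmb6, was read in fewer cells, 50 of 182 with gRNA and 3 of 60 without. Its level in batch 5 was 30.2 CPM (28.2 to 32.4) with Trps1 gRNA and 49.9 CPM (46.6 to 53.4) with Sox9 gRNA, against 5.79 CPM (4.72 to 7.03) with no gRNA, all from 1 cell. In batch 3 a single no gRNA cell at 131 CPM carried that pool to 49.7 CPM, above 11 CPM with dual gRNA and 17.2 CPM with Sox9 gRNA. Without the highest cell of each pool both ratios turned, to 0.50 with dual gRNA and 1.17 with Sox9 gRNA. The 4 dual gRNA cells of batch 1 held 1186, 1024, 0 and 668 CPM, and the control gRNA pool there held 228 CPM. In batch 4 Sox9 gRNA cells held 5.95 CPM, dual gRNA cells 88.0 CPM and Trps1 gRNA cells 0.414 CPM, against 90.7 CPM with control gRNA. In batch 2 dual gRNA cells held 101 CPM in 4 of 8 cells, and no read was found in 7 control gRNA cells of day 21, so the level was at least 504-fold higher with dual gRNA. Control gRNA cells of day 7 held 85.5 CPM. At 100 CPM or more, 17 gRNA cells held both Psmb8 and Psmb9, 50 held Psmb8 alone and 9 held Psmb9 alone.

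Psme1 encodes the alpha subunit of PA28, the ring that opens the proteasome to release peptides. It was read in 101 of 182 gRNA cells and 19 of 60 no gRNA cells. Its level in batch 5 was 79.1 CPM (75.8 to 82.6) with Trps1 gRNA and 74.9 CPM (70.8 to 79.1) with Sox9 gRNA, against 25.8 CPM (23.5 to 28.3) with no gRNA, a ratio of 3.06-fold with Trps1 gRNA and 2.9-fold with Sox9 gRNA. Most cells overlapped, with 4 of 30 Trps1 gRNA and 6 of 21 Sox9 gRNA cells above the highest no gRNA cell. Its batch 3 level was 93.5 CPM with dual gRNA and 116 CPM with Sox9 gRNA, against 2.1 CPM with no gRNA, and batch 1 held 374 CPM in dual gRNA cells, 186 CPM in control gRNA cells and 13.1 CPM in no gRNA cells. Sox9, dual and Trps1 gRNA cells of batch 4 held 56.9, 120.2 and 77.3 CPM, against 231 CPM with control gRNA, and without the highest cell the Sox9 and Trps1 gRNA pools held 27.3 and 17.4 CPM. In batch 2 dual gRNA cells held 59.2 CPM, against 210.1 CPM in control gRNA cells of day 21 and 48.6 CPM in those of day 7, where 1 of 8 cells held every read.

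Psme2, the beta subunit of PA28, was read in 102 of 182 gRNA cells and 23 of 60 no gRNA cells, and part of its reads may belong to Psme2b. Its level in batch 5 was 107 CPM (103 to 111) with Trps1 gRNA and 121 CPM (116 to 127) with Sox9 gRNA, against 38.4 CPM (35.6 to 41.4) with no gRNA. Batch 4 held 193 CPM (186 to 199.5) of it with dual gRNA in 7 of 13 cells, against 14.6 CPM (12.9 to 16.5) with Sox9 gRNA in 2 of 16 cells, where 1 cell held 99.2% of the reads. Trps1 gRNA cells held 135 CPM and control gRNA cells 201 CPM. At day 7 in batch 3 the order of the first pair was the other way, at 48.5 CPM with dual gRNA and 114 CPM with Sox9 gRNA. The 2 subunits both reached 100 CPM in 30 gRNA cells, Psme1 alone in 25 and Psme2 alone in 33.

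Levels of different genes were compared per kilobase of annotated exon. B2m was the highest member per kilobase in all 13 gRNA pools and in all 3 no gRNA pools, at 755 to 3137 CPM per kilobase in the gRNA pools and 66.1 to 103 in the no gRNA pools. H2-D1 was second in 11 of 13 gRNA pools and H2-K1 in the other 2, the dual gRNA pool of batch 1 and the day 7 control pool of batch 2. In no gRNA pools H2-D1 was only seventh or eighth. Tap2 was the lowest member in 9 of 13 gRNA pools and Tap1 in 3, and in the day 21 control pool of batch 2 neither Tap2 nor Psmb9 had a read. The median number of members with a read in a cell ranged from 4 to 8 in gRNA pools and from 1 to 3 in no gRNA pools.

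**Figure D4:**
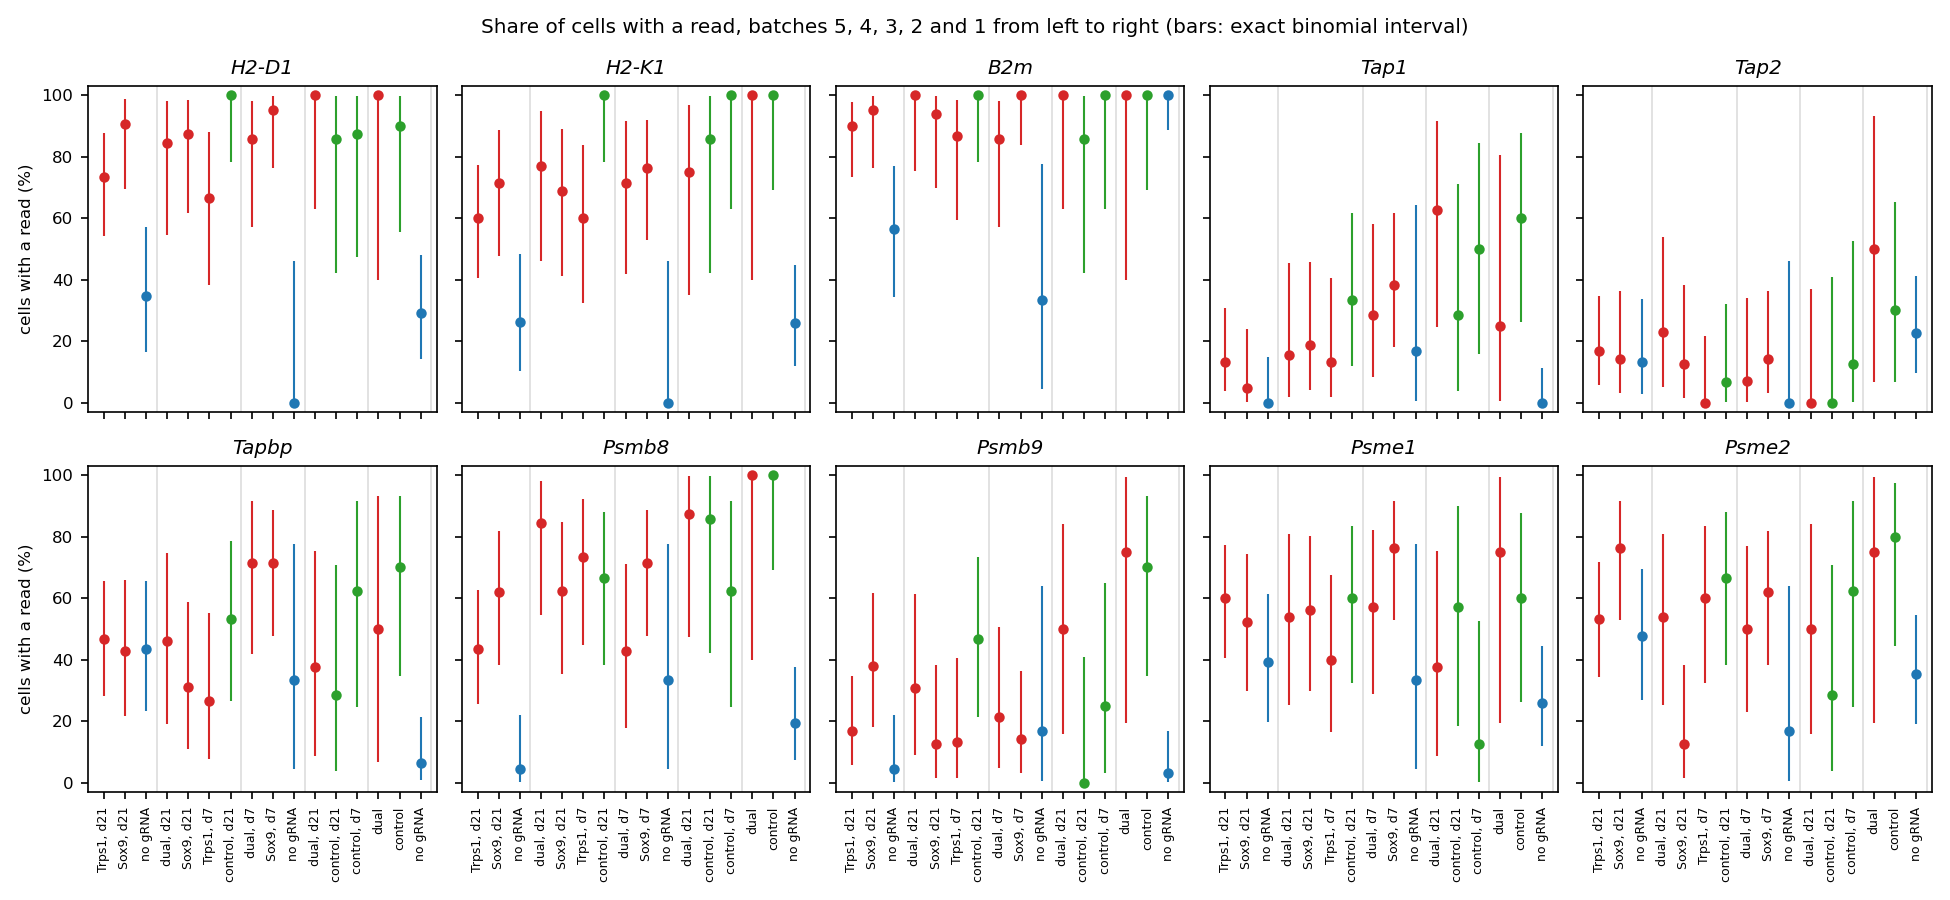
Percent of cells with at least 1 read of each gene (vertical axis) in each astrocyte pool, with exact binomial intervals at 95% as bars, batches 5 to 1 from left to right, red for targeting gRNA, green for control gRNA and blue for no gRNA. B2m is read in 85.7% or more of the cells of every gRNA pool.

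In batch 4 the 2 in-slice libraries, both labelled day 21, held at most 6.71 CPM of any member. Of members at 5 CPM or more in either pool, 8 of 8 were above both libraries with Sox9 gRNA and 9 of 9 with dual gRNA. With control gRNA 10 of 10 were, and with Trps1 gRNA, whose cells are of day 7, 7 of 7. Members under that minimum, such as Tap1 at 0.358 CPM with dual gRNA, were not counted. The same held for most genes: of all genes at 5 CPM or more in either pool, 80.7% were above both libraries with Sox9 gRNA, 82.7% with dual, 83.4% with Trps1 and 85% with control gRNA. The same 2 libraries held 3426 and 2856 CPM of the microglial list. In batch 5 the in-slice libraries held 1939, 0, 677, 1.35 and 0 CPM of H2-D1 and 1782, 35.2, 1663, 1.35 and 83.9 CPM of B2m, so 3 of 5 were low. By the same minimum, 9 of 10 members stood above the in-slice pool with Trps1 gRNA and 8 of 9 with Sox9 gRNA. With no gRNA 4 of 9 did, beside 72.4%, 66.2% and 64.6% of all genes in the same order. Psmb8 was the exception with either gRNA, at 374 CPM in the in-slice pool. Above the highest in-slice library stood 6 of 10, 4 of 9 and 4 of 9 members in these pools, beside 54.1%, 49.6% and 49.2% of all genes. Cells above the highest in-slice library numbered 4 of 30 and 1 of 21 for H2-D1 and 6 of 30 and 6 of 21 for B2m with Trps1 and Sox9 gRNA.

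In batch 3 the in-slice libraries held 145, 7.95, 4829 and 0.600 CPM of H2-D1, 0, 0, 942 and 133 CPM of H2-K1 and 408, 512, 2889 and 0 CPM of B2m. The third library, which also held 1509 CPM of Tap1, carried 73987 CPM of the microglial list, against 4833, 8482 and 3.60 CPM in the others. The in-slice pool of H2-D1 (1761 CPM) was above both gRNA pools, and the in-slice pools of H2-K1, Psmb8, Psme1 and Psme2 were below both. Astrocyte pools were above the in-slice pool for 4 members with dual gRNA, 5 with Sox9 gRNA and 2 with no gRNA, beside 74.7%, 77.3% and 52.3% of all genes. They were above the highest in-slice library for 1, 2 and 1 members, beside 55.2%, 56.7% and 38.5% of all genes. The single in-slice library of batch 2 held 2740.0 CPM of H2-D1, 1214 CPM of H2-K1 and 5488 CPM of B2m, with 26807 CPM of the microglial list, and is labelled day 7. Of members at 5 CPM or more in either pool, 4 of 9 were above it in control gRNA cells of day 7. In control and dual gRNA cells of day 21 it was 3 of 8 and 3 of 9. Of all genes 87.3%, 84.7% and 83.4% were above it in the same order. In batches 2, 3 and 5 members at the level of the gRNA pools were also found in in-slice control libraries.

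Class I chains were set beside microglial transcripts as a ratio. The summed CPM of H2-D1, H2-K1 and B2m per CPM of the microglial list was 0.360 with Trps1 gRNA, 0.239 with Sox9 gRNA and 0.226 with no gRNA in batch 5. In batch 1 it was 0.380 with dual gRNA, 0.315 with control gRNA and 0.310 with no gRNA, and in batch 3 0.233 with dual gRNA, 0.296 with Sox9 gRNA and 0.287 with no gRNA. In these 3 batches the ratio lay between 0.226 and 0.380 in gRNA and no gRNA pools alike. The in-slice pools stood at 0.279 in batch 5 and 0.116 in batch 3. In batch 4 it was 0.296 with Sox9 gRNA, 0.249 with dual gRNA, 0.365 with Trps1 gRNA and 0.407 with control gRNA, but 0.00237 in the in-slice pool. In batch 2 it was 0.440 with dual gRNA, 0.696 and 0.664 in control gRNA cells of day 21 and day 7 and 0.352 in the in-slice library. The part of microglial RNA in the class I values was not tested.

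**Figure D5:**
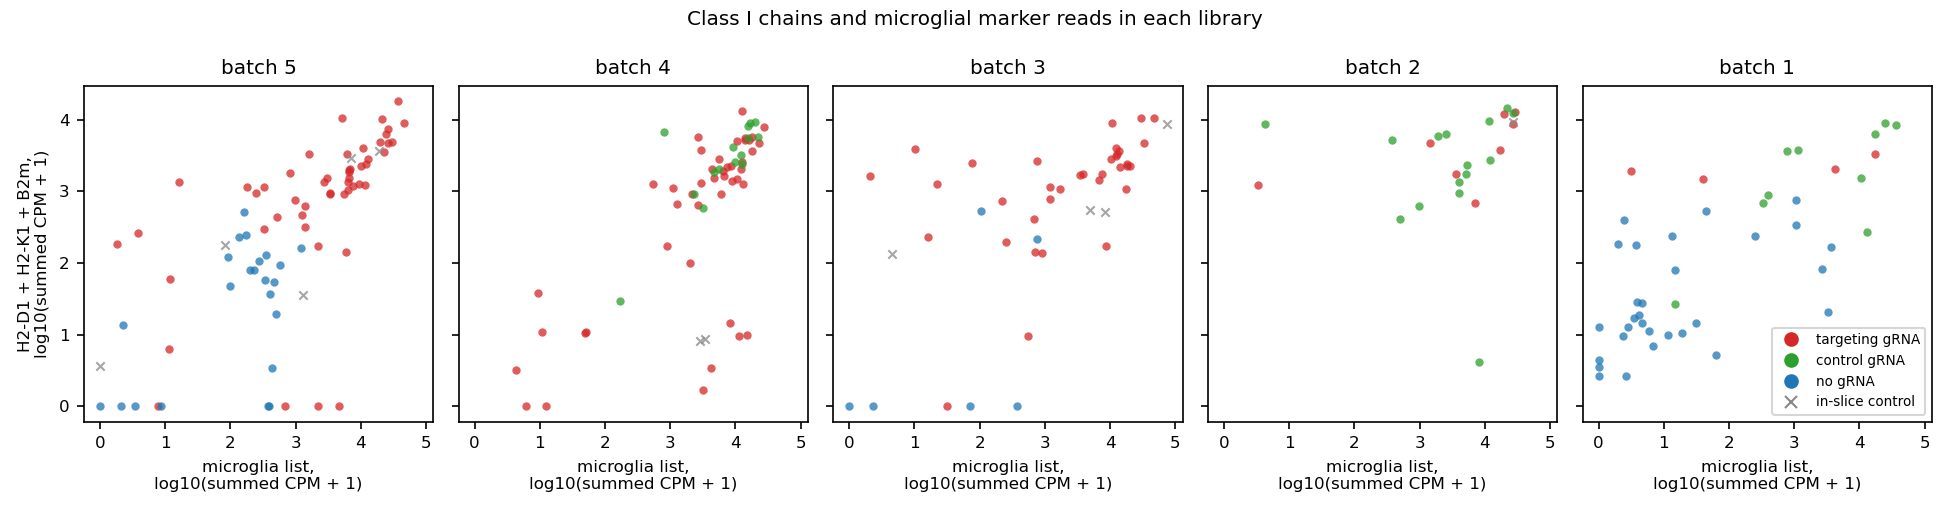
Each point is 1 library, with log10(summed CPM + 1) of the microglial list on the horizontal axis and of H2-D1, H2-K1 and B2m together on the vertical axis, a panel per batch. High libraries lie together at the upper right, and libraries with low microglial reads and high chains, or the reverse, lie off that line.

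Cell by cell, the Spearman correlation of the chain sum with the microglial list ran from 0.22 to 0.83 within the pools of 7 or more gRNA cells. Under 10 CPM of 8 microglia-defining genes were found in 25 of 182 gRNA cells and 30 of 60 no gRNA cells. Such cells could still hold other reads of the microglial list, up to 2190 CPM of it in a Sox9 gRNA cell of batch 5. Among these, 11 of 25 gRNA cells and 0 of 30 no gRNA cells still held 100 CPM or more of H2-D1 or H2-K1. They were 2 of 6 such cells with Trps1 gRNA and 2 of 3 with Sox9 gRNA in batch 5, 3 of 4 with dual gRNA and 1 of 2 with Sox9 gRNA in batch 3, 1 of 1 with dual gRNA and 1 of 1 with control gRNA in batch 2, and 1 of 1 with dual gRNA in batch 1. In batch 4 none of the 6 such cells did, nor did the 1 such control gRNA cell of batch 1. A control gRNA cell of day 7 in batch 2, picked after its values were seen, had 6878 CPM of H2-K1, 1730.0 CPM of H2-D1, 785 CPM of Tap1 and 683 CPM of Psmb9, but 1.95 CPM of B2m, and 3.25 CPM of the whole microglial list. The reverse was also seen: 8 of 133 gRNA cells with 1000 CPM or more of the microglial list held under 20 CPM of the 3 chains together, as did 2 of 9 such in-slice libraries and 0 of 6 such no gRNA cells.

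Leaving out every cell with 10 CPM or more of the defining genes was possible where 3 or more cells remained in each pool. The filter used the 8 defining genes only, so cells with other reads of the 16-marker list were kept. Of that list the kept Sox9 gRNA cells of batch 5 held 1611, 2190 and 15.5 CPM. Kept Trps1 gRNA cells held up to 331 CPM and kept no gRNA cells of that batch up to 159 CPM. The Sox9 gRNA cell at 1611 CPM held 2680 CPM of B2m and 33.1 CPM of the astrocyte markers. The log2 ratios to no gRNA cells were then 3.95 for H2-D1, 5.34 for H2-K1 and 2.03 for B2m with Trps1 gRNA in batch 5, from 6 cells against 7. With Sox9 gRNA they were 5.92, 6.06 and 4.64, from 3 cells against 7, and with dual gRNA in batch 3 they were 6.37, 7.49 and 5.12, from 4 cells against 3. With Trps1 gRNA 6 of 10 members were then higher and 1 lower (Tap2, at -2.67), beside 52.9% and 18.8% of all genes. With Sox9 gRNA 5 were higher and 2 lower (Tap2, at -2.67, and Tapbp, at -3.40), beside 33.0% and 52.2% of all genes. With dual gRNA in batch 3, 4 were higher and 3 lower (Tapbp, Psmb8 and Psme2, at -1.94, -1.43 and -2.26), beside 56.5% and 34.1% of all genes. Between Trps1 and Sox9 gRNA cells, from 6 cells against 3, the ratios were -1.97 for H2-D1, -0.71 for H2-K1 and -2.61 for B2m, against 0.31, 0.56 and -0.16 with all cells, so both heavy chains changed sign. In that pair 3 members were higher and 3 lower, beside 63.6% and 21.1% of all genes.

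The genes whose pooled levels followed the chains most closely, over 16 astrocyte pools after the batch mean was subtracted, included complement and Fc receptor genes of microglia. By Pearson r among 9442 genes, they were Cd52 (0.981), the complement genes C1qb (0.980) and C1qc (0.980), Rac2 (0.973), Arpc1b (0.970), the Fc receptor genes Fcgr3 (0.969) and Fcer1g (0.965), Cst7 (0.957), Aif1 (0.956) and Ccl3 (0.952). Of the other members, Psmb8 had the closest pattern to the chains (0.888), then Psme1 (0.873), Psme2 (0.714), Tapbp (0.616), Tap2 (0.606), Tap1 (0.544) and Psmb9 (0.390). The pools within a batch share their table, and no test was made of these values. The no gRNA pools are among the 16, and their chain levels were far under those of all gRNA pools. A gene that differs between gRNA and no gRNA pools can therefore reach a high r by that contrast alone, and r within gRNA pools is not given.

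Genes around the members were counted by list. Of 22 other class I genes, such as nonclassical heavy chains and peptide-loading chaperones, 10 were higher and 1 lower with Trps1 gRNA against no gRNA in batch 5, 10 and 1 with Sox9 gRNA, and 16 and 1 with control gRNA in batch 1. Over all genes 30.3%, 24.3% and 37.2% were higher in these comparisons. H2-T23, a nonclassical heavy chain, stood at 79.9 CPM with Trps1 gRNA and 50.2 CPM with Sox9 gRNA, against 3.41 CPM with no gRNA. H2-M3, another nonclassical chain, stood at 1.66 CPM with Trps1 gRNA and 92.1 CPM with Sox9 gRNA, and had no read in no gRNA cells. Psmb10, the third immunoproteasome subunit, stood at 123 CPM with Trps1 gRNA, against 34.4 CPM with no gRNA, and at 440.2 CPM with control gRNA, against 20.9 CPM with no gRNA in batch 1. In batch 4, values picked after they were seen, its order was unlike that of Psmb8 and Psmb9, at 344 CPM with Sox9 gRNA, 20.2 CPM with dual gRNA and 12.5 CPM with Trps1 gRNA, against 115 CPM with control gRNA.

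The 14 subunits of the constitutive proteasome cut proteins in all cells. Against no gRNA, 1 was higher with Sox9 gRNA and 4 with Trps1 gRNA in batch 5 and none lower, and in batch 1 12 were higher with control gRNA, beside 24.3%, 30.3% and 37.2% of all genes. Their sum was 1946 CPM with Trps1 gRNA and 1474 CPM with Sox9 gRNA, against 1316 CPM with no gRNA, and in batch 1 3449 CPM with control gRNA against 1069 CPM with no gRNA. In batch 4, 6 were lower and 1 higher with Sox9 gRNA than with control gRNA, a share near the 40.7% of all genes that were lower.

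Of 21 regulators of class I genes, 13 were higher and 1 lower with Sox9 gRNA and 10 higher and 1 lower with Trps1 gRNA against no gRNA in batch 5, where 24.3% and 30.3% of all genes were higher. Irf8, a myeloid interferon regulatory factor, stood at 51.8 CPM with Trps1 gRNA and 78.1 CPM with Sox9 gRNA, against 0.170 CPM with no gRNA. Irf1, which acts on class I promoters, stood at 117 CPM with Trps1 gRNA against 12.7 CPM with no gRNA, but in batch 1 at 202 CPM with control gRNA against 175 CPM with no gRNA, a log2 ratio of 0.20 that was -2.43 without the highest cells. Nlrc5, the class I transactivator, stood at 164 CPM with control gRNA in batch 1 and had no read in no gRNA cells. Its batch 4 level was 0.286 CPM with Sox9 gRNA, 3.88 CPM with dual gRNA and 0.0517 CPM with Trps1 gRNA, against 38.2 CPM with control gRNA, each from 4 cells or fewer.

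Of 16 interferon-induced genes, 15 were higher with control gRNA than with no gRNA in batch 1, beside 37.2% of all genes, and the list summed to 6532 CPM with control gRNA, against 126 CPM with no gRNA. Gbp2, a guanylate-binding protein gene, stood there at 2225 CPM, against 0.377 CPM. In batch 5 the sums were smaller, at 542 CPM with Trps1 gRNA and 368 CPM with Sox9 gRNA, against 146 CPM with no gRNA, with 7 higher and 2 lower with Trps1 gRNA and 8 higher with Sox9 gRNA, beside 30.3% and 24.3% of all genes higher. Without the highest cells 5 and 4 were higher, while genes higher over all genes fell from 3851 to 2402 and from 2985 to 1678. In batch 4, 7 were lower and 1 higher with Sox9 gRNA than with control gRNA, a share near the 40.7% of all genes that were lower.

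The 7 class II genes, which serve presentation to helper T cells, were set beside the chains by day. In control gRNA cells of batch 2 they summed to 4162 CPM at day 21 and 63.8 CPM at day 7, and without the cell with most of these reads to 2467 CPM at day 21 and 0.650 CPM at day 7. The log2 ratios of day 21 to day 7 were 0.87 for H2-D1, 0.28 for H2-K1 and 0.57 for B2m, and 1.31, 0.24 and 0.99 without the highest cells. At day 7 in batch 4, Trps1 gRNA cells held 35.1 CPM of class II genes, or 13.5 CPM without 1 cell, against 9767 CPM in control gRNA cells of day 21. Day and gRNA cannot be told apart in that pair.

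Other cell types were checked by marker lists chosen with the members. T and NK cell markers summed to 0 to 327 CPM over the 16 astrocyte pools and endothelial markers to 0 to 214 CPM. In batch 5 endothelial markers stood at 214 CPM with Trps1 gRNA, 21.0 CPM with Sox9 gRNA and 6.36 CPM with no gRNA. A single Trps1 gRNA cell at 5952 CPM carried that pool, which held 2.66 CPM without it, and 26 of 30 cells were under 10 CPM. Oligodendrocyte markers differed along with the members in several comparisons. With Sox9 gRNA in batch 4, 9 of 10 were lower than with control gRNA, or 5 without the highest cells. Their sum was 395 CPM, against 3539 CPM in the control pool, which held 964 CPM without 1 cell. In the same comparison 6 of 10 neuron markers were lower, or 5 without the highest cells, at 710.1 CPM, against 1852 CPM. Of all genes 40.7% were lower there, 4697 of 11550, or 2459 without the highest cells. Dual gRNA cells of that batch had 12 of 14 astrocyte markers lower than control gRNA cells, beside 36.9% of all genes. Their sum was 1854 CPM, against 8679 CPM. With Sox9 gRNA in batch 5, 9 of 10 oligodendrocyte markers were higher than with no gRNA, or 1 without the highest cells. Of all genes 24.3% were higher there, 2985 of 12287, or 1678 without the highest cells. The markers summed to 4859 CPM, or 2709 CPM without 1 cell, against 2429 CPM. The part of these lists in the class I values was not tested.

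The Trps1 gRNA cells of batch 5 came in 3 title series. Series 21T3 (11 cells) held 1761 CPM of H2-D1, 1019 CPM of H2-K1 and 1844 CPM of B2m, series 21T2 (10 cells) 339.6, 489.8 and 844 CPM of them, and series 21T (9 cells) 326, 178 and 429.6 CPM. The microglial list stood at 13950.0 CPM in series 21T3, 2232 CPM in 21T2 and 4778 CPM in 21T. In batch 3 the dual gRNA series 7ST held 103 CPM of Psme2 and series 7ST2 0.0880 CPM, with 7 cells in each. Among Sox9 gRNA cells of batch 4, series 21S held 52.6 CPM of H2-K1 and 403 CPM of Psmb8 and series 21S2 528 and 54.8 CPM. The sources used here do not say what these series stand for.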

How the data were processed

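Single-cell libraries were deposited by the authors as 5 tables of raw read counts per gene and cell, 1 table per batch. Of 289 labelled samples, 254 had a column, 242 astrocytes and 12 in-slice controls, grouped by gRNA, day and batch from the labels. Per the submitters' processing notes, the tools were STAR 2.6.0a and RSEM 1.3.0 and the builds GRCm38 and mm10; their order and how strand was handled are not stated there. The 10 members and all gene lists were chosen with earlier results of these data known. Rows that name no gene were left out of library totals; they held 75.6% of counts in batch 1, 22.3% in batch 2 and 0.379% or less in the others. Gene identifiers matched to a symbol numbered 55141 of 55487 in the largest table.

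Reads were summed over the cells of a group and divided by the reads in genes to give pooled CPM. Poisson and Clopper-Pearson intervals are exact at 95% and cover counting error only, since reads carry no molecular identifiers. Log2 ratios added 5 CPM to both pools. No animals are named in the labels, so no p-value was computed, and the calling step was checked on simulated data. Depth ranged from 15959 to 4656612 reads in genes per astrocyte.

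All 10 members are described whatever their values. Of the other lists, counts are given with up to 4 examples per comparison, those with the largest log2 ratio past the fold; values of a named gene in another comparison were picked after they were seen. The genes most like the chains are the 10 highest by Pearson r among genes that are in all 5 tables and reach 20 CPM in any 3 pools. Alternatives were the scaling, the pseudocount, the minimum level, equal weight per cell and single title series. Others left out the highest cells, shallow cells or cells with 10 CPM or more of the 8 microglia-defining genes. Shares of cells were also read after thinning to 100000 reads and with a minimum of 10 reads. Sequences are from RefSeq (GRCm38.p6). Python 3.11.15 with numpy 2.4.6, pandas 2.3.3, scipy 1.17.1, Biopython 1.88 and matplotlib 3.10.9 was used.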

Additional observations from a re-analysis of the deposited data

Results flagged for a closer look

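In groups of 4 to 10 libraries, 21 of 70 group values had 1 library far from the others by Dixon's criterion. Chance passes it in about 1 of 20 groups of normally distributed values. That rate does not apply here, since many groups were mostly 0, where a single library with a read passes by itself. The count therefore only lists uneven groups. In the 4 dual gRNA cells of batch 1, a single cell, not always the same one, stood apart at 1.79 CPM of Tap1 (next 0), 1244 CPM of Tap2 (next 3.59), 554 CPM of Tapbp (next 4.86) and 435 CPM of Psme2 (next 1.79), and for Psmb9 1 cell was at 0 with the next at 668 CPM. In control gRNA cells of day 7 in batch 2, 1 cell held all reads of Tap2, at 10.8 CPM, and of Psme1, at 317 CPM. In control gRNA cells of day 21, 1 cell had 0 CPM of B2m where the next had 646 CPM, and 1 held 75.8 CPM of Tapbp where the next held 1.48 CPM.

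Among the 6 no gRNA cells of batch 3, single cells held 113 CPM of Tap1, 79.2 CPM of Tapbp, 131 CPM of Psmb9, 62.7 CPM of Psme1 and 106 CPM of Psme2. Among the in-slice libraries of batch 3, single libraries held 1509 CPM of Tap1, 449 CPM of Tap2, 127 CPM of Psmb9 and 209 CPM of Psme1. In those of batch 5 they held 1.0 CPM of Tap1, 6.06 CPM of Psme1 and 221 CPM of Psme2.

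Some log2 ratios past 1 had opposite signs in 2 batches, and these differences were not tested. Dual against control gRNA gave -2.44 for Tapbp in batch 4 and 2.2 in batch 2. Psmb9 stood at 2.35 between Sox9 gRNA and no gRNA in batch 5 and -1.30 in batch 3, and between dual gRNA and no gRNA at -1.77 in batch 3 and 6.93 in batch 1. Dual against Sox9 gRNA gave 1.03 for B2m and 3.33 for Psme2 in batch 4, at day 21, and -1.24 and -1.16 in batch 3, at day 7.

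Reads of the row named DsRed, which no comparison used, were found in 26 of 30 Trps1 gRNA and 21 of 21 Sox9 gRNA cells of batch 5, against 5 of 23 no gRNA cells and 2 of 5 in-slice controls.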

How the results depend on the processing

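No paired analysis was possible because the labels name no animal and each group is 1 pool with no test. Of the recomputed counts of members past the fold, 90 stayed within 1.5 times and 14 did not, and of 706 recomputed log2 ratios of members past the fold, 19 changed sign, as did 51 of 329 within the fold, which are not listed. The cause was not tested where none is named. Trps1 gRNA against no gRNA in batch 5 had 4 members higher (1 lower) in title series 21T alone. Trps1 against Sox9 gRNA gave 1 higher under median-of-ratios scaling, 1 with equal weight per cell, 1 (5 lower) in series 21T2, 0 (6 lower) in 21T and 4 in 21T3. Dual against Sox9 gRNA in batch 4 gave 3 and 2 higher under these scaling and weighting choices. Dual gRNA against no gRNA in batch 3 gave 5 under that scaling and 4 (3 lower) without cells with 10 CPM or more of the microglia-defining genes. In that last setting 56.5% of all genes were higher and 34.1% lower. Dual against Sox9 gRNA in batch 3 gave 1 lower in series 7ST, 5 in 7ST2, 5 against 7S and 1 (2 higher) against 7S2. Apart from the setting without the microglia-defining genes, shares of all genes are not given beside these recomputed counts. They therefore cannot show whether the members moved apart from other genes.

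Ratios past the fold that changed sign without the highest cells were those of Tap2 in batch 4 (0.034 with Sox9 and 0.40 with dual against control gRNA), Psmb9 in batch 3 (1.17 with Sox9 and 0.50 with dual against no gRNA), and, in dual gRNA cells of batch 1, Tap2 (-2.95 against control and -0.28 against no gRNA) and Psme2 (-2.11 against no gRNA). Without cells with 10 CPM or more of the microglia-defining genes they were Tapbp (-0.27) and Psme2 (-0.26) with Trps1 gRNA in batch 5. With dual gRNA in batch 3 they were then Tapbp (-1.94), Psmb8 (-1.43) and Psme2 (-2.26). In single series they were Psmb9 (-1.11 in 21T) and Psme2 (-1.15 in 21T2, -0.41 in 21T) against no gRNA, Tap1 (-0.94 in 21T) against Sox9 gRNA, Tap1 (-1.05 in 7S2) and Psme2 (-1.75 in 7ST2) against no gRNA, and Psmb8 (0.60) for dual gRNA against 7S2. Median-of-ratios scaling shifted the pools of a comparison against each other by 0.017 to 1.06 log2 units in size. In the no gRNA pool of batch 3, 3 of the 6 cells had under 100000 reads in genes.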
